A study of Mus musculus with 12 samples.

Results

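Tropomyosins, tropomodulins and leiomodin-2, the proteins that line the thin filament of muscle and control its slow-growing end, were examined in quadriceps muscle of mouse pups. The members were the 9 genes Tpm1, Tpm2, Tpm3, Tpm4, Tmod1, Tmod2, Tmod3, Tmod4 and Lmod2, out of 19938 genes with a probe set of their own on the array, and they were chosen by name. Each gene was read from the probe set with the highest mean over the 12 arrays among those paired with its symbol alone, and all 9 were measured. The first group held 6 arrays labelled KO, from C57Bl/6 pups labelled as cofilin-2 null, and the second held 6 arrays labelled WT, from wild type C57Bl/6 littermates. All pups were 7 days old, no pup received an agent, and each array carried RNA of 1 pup according to the methods of the study. How the Cfl2 allele was made is not given in the sources used here. Cofilin-2, encoded by Cfl2, severs actin filaments in muscle. The comparison asks which transcripts of its thin filament neighbours differ between muscle with and without it.

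Tropomyosin is a coiled coil that lies along the actin filament, and in striated muscle it moves with troponin to cover or uncover the binding sites of myosin. Outside the sarcomere, other tropomyosin isoforms mark different actin filaments and change which binding proteins, cofilin among them, can reach the actin. Tropomodulins cap the pointed end of the filament and set its length, while leiomodins, their larger relatives, start new filaments and let them grow at that end. In humans, variants of the genes matching Tpm2 and Tpm3 cause nemaline myopathy, a muscle disease with rod-shaped bodies.

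The targeted gene opposed the labels. The log2 level of Cfl2 (probe set 10400350) had a minimum of 12.31, a median of 12.40 and a maximum of 12.43 on the arrays labelled KO, against 4.92, 6.06 and 7.71 on the arrays labelled WT. The difference, labelled KO minus labelled WT, was 6.32 ± 0.36 (SE, limma, adjusted p = 1.98e-07). The groups are therefore named by their labels throughout, no array was moved, and every sign would turn if the labels were exchanged. The sign opposes the direction that the text of the study gives, for Cfl2 and for every other gene looked up. These were 14 genes with a stated direction, chosen after their values were known, of which 13 had a probe set of their own and 13 ran opposite, among them Lep (2.12, adjusted p = 0.000545), Angptl7 (-2.24, adjusted p = 0.000246) and Myh8 (-0.16, adjusted p = 0.00577). All levels are log2 values normalized by the authors, all differences are on that scale, and all p-values are from limma with Benjamini-Hochberg adjustment over 21789 probe sets. Of 10 skeletal muscle markers, whose mean level was 12.54 to 12.77 on the arrays labelled KO and 12.42 to 12.73 on the arrays labelled WT, 2 were higher (Myh4 by 1.70 and Pygm by 0.34), 4 were lower (Mylpf, Myh8, Des and Ttn, by 0.15 to 0.40) and 4 did not pass, Ckm among them. Array medians over the tested probe sets lay at 7.16 to 7.18 in the group labelled KO and at 7.08 to 7.13 in the group labelled WT, and over all 35556 rows the order was opposite (6.35 to 6.41 against 6.42 to 6.46). The number of arrays limits the precision.

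Of the 9 members, 4 were higher on the arrays labelled KO (Tpm3, Tpm4, Tmod3 and Tmod4), 3 were lower (Tpm1, Tpm2 and Lmod2) and 2 did not pass (Tmod1 and Tmod2). Tpm3 was counted by its probe set with the highest mean, and its probe sets disagreed. With its probe set of the next highest mean, which was lower by 0.36, 3 members were higher and 4 lower. That choice was made after seeing the data. Over all probe sets tested, 31.9% passed, with 19.5% higher and 12.4% lower. Of all calls 61.1% were higher as deposited, 50.6% after quantile normalization, 36.2% with each array centred on its median over the tested probe sets and 77.8% when centred over all rows. The median absolute difference was 0.35 over the members and 0.11 over all probe sets. In 6 members the 2 groups did not overlap, against 15.4% of all probe sets.

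**Figure D1:**
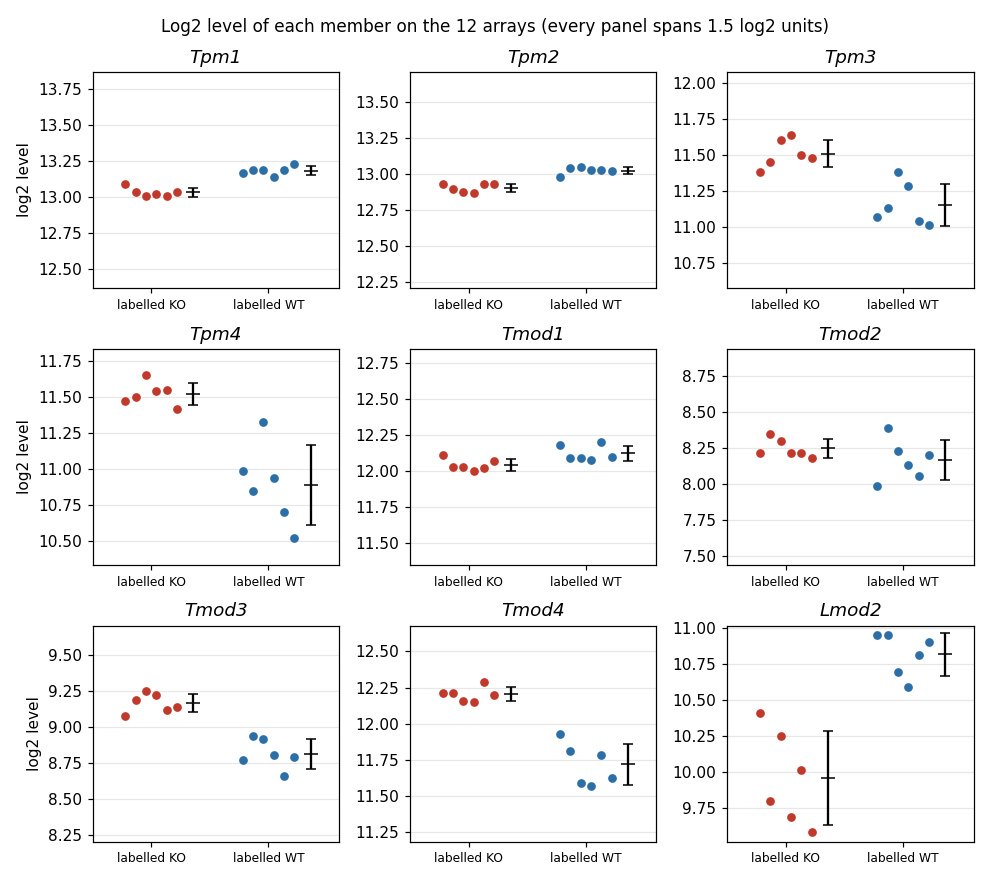
Log2 level (vertical axis, the same span in every panel) of the 9 members on each array, labelled KO on the left in red and labelled WT on the right in blue. Points are arrays in order of their number, and bars give the mean and SD (n = 6). Lmod2 stood at 9.58 to 10.41 on the arrays labelled KO and 10.59 to 10.95 on those labelled WT, and Tpm4 showed the opposite order, while both groups of Tpm1 and of Tpm2 were narrow.

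Promoter sequence was set beside the levels for the members that changed most in either direction and for Tpm1. RefSeq gave a start site for 8 of the 9 members, in 10 windows of 250 bases upstream of the start on build GRCm38.p6, and 4 windows are printed here. The windows were searched on both strands for the CArG box bound by serum response factor, for the same box with 1 of its 4 outer letters different (called CArG-like here), for the MEF2 box, for the M-CAT element CATTCC bound by TEAD factors, and for the E-box CANNTG bound by myogenic factors. Capitals mark CArG-like and M-CAT matches. E-boxes are left in lower case.
Lmod2 (chr6:24597521-24597770, + strand): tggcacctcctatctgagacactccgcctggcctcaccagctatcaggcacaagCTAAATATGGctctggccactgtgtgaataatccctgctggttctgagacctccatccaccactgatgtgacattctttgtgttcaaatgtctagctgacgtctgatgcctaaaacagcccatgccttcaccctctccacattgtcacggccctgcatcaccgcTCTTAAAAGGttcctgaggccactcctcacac
Tpm1 (chr9:67049214-67049463, - strand): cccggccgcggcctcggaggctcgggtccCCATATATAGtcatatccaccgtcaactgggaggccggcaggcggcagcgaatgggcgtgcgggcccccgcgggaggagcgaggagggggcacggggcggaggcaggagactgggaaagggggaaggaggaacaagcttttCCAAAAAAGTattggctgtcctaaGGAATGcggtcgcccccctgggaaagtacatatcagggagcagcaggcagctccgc
Tpm4 (chr8:72135038-72135287, + strand): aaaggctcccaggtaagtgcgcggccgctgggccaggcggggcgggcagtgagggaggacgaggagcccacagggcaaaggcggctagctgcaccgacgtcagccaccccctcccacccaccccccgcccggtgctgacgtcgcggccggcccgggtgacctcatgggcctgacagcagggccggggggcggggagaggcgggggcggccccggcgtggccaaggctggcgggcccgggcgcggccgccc
Tmod4 (chr3:95124264-95124513, + strand): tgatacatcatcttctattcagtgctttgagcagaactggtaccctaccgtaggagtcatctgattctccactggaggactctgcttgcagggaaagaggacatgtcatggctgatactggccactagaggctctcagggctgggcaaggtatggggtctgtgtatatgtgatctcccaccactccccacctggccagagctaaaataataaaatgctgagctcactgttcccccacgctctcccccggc
No window of a member held a full CArG box or MEF2 box, which occurred in 1.47% and 2.92% of 32851 promoter windows of the same length. CArG-like letters, found in 11.1% of all windows, stood at 2 places each upstream of Lmod2 and Tpm1 and at 1 place in the downstream window of Tpm3. An M-CAT element, found in 12.6% of all windows, lay upstream of Tpm1 and Tmod1. E-boxes occurred in 66.2% of all windows and in at least 1 window of Tpm1, Tpm2, Tpm3, Tmod2, Tmod4 and Lmod2. None of these matches in the members overlapped another. The windows of Tpm4 and Tmod4 printed above held none of the capitalised letters. The window of Tpm2, lower like Lmod2 and Tpm1 but not printed, held an E-box only. Tpm3, counted as higher, had a CArG-like match. The printed windows therefore do not compare lower with higher members. A match describes the letters only.

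Lmod2 differed most among the members. It encodes leiomodin-2, which is best known from heart muscle, where it starts actin filaments and lengthens them at the pointed end. Its level (probe set 10536711) had a minimum of 9.58, a median of 9.91 and a maximum of 10.41 on the arrays labelled KO, against 10.59, 10.86 and 10.95 on the arrays labelled WT. Every array labelled KO lay below every array labelled WT, and the group labelled KO spread over 0.83 units, against 0.36 units in the group labelled WT. Lmod2 was 1.81-fold lower (difference -0.86 ± 0.13 SE, adjusted p = 0.000231). Among the arrays labelled KO, those numbered 1 and 3 were highest at 10.41 and 10.25, and those numbered 4 and 6 were lowest at 9.69 and 9.58.

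The other leiomodins were measured too. Lmod3, the leiomodin of skeletal muscle and a nemaline myopathy gene, lay at 11.12 to 11.32 on the arrays labelled KO and at 10.68 to 11.11 on the arrays labelled WT. It was 1.24-fold higher (0.31 ± 0.07 SE, adjusted p = 0.00532). Lmod1, the smooth muscle leiomodin, had means of 6.68 ± 0.16 and 6.76 ± 0.17 (SD, n = 6 each) on the arrays labelled KO and labelled WT, a difference of -0.09 with an adjusted p of 0.464.

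The tropomodulins that changed were higher on the arrays labelled KO. Tmod4, the tropomodulin of skeletal muscle fibres, had a minimum of 12.15, a median of 12.21 and a maximum of 12.29 on the arrays labelled KO, against 11.57, 11.70 and 11.93 on the arrays labelled WT (probe set 10494160). The groups did not overlap, and the arrays labelled KO lay within 0.14 units of each other. Tmod4 was 1.40-fold higher (0.49 ± 0.06 SE, adjusted p = 6.4e-05), the lowest adjusted p among the members. Tmod3, the widely expressed form that caps filaments of the membrane skeleton and cytoplasm, stood at 9.08, 9.17 and 9.25 (minimum, median, maximum) on the arrays labelled KO, against 8.66, 8.80 and 8.94 on the arrays labelled WT (probe set 10595000). Here too the groups stayed apart, with 1.28-fold higher levels (0.35 ± 0.05 SE, adjusted p = 0.000199).

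Tmod1, which caps thin filaments in heart and skeletal muscle and actin in red blood cells, was close to the threshold. Its levels (probe set 10504692) averaged 12.04 ± 0.04 on the arrays labelled KO, with a maximum of 12.11, and 12.12 ± 0.05 on the arrays labelled WT, with a minimum of 12.08 (SD, n = 6 each). The groups overlapped, and the difference of -0.08 ± 0.04 (SE) had an adjusted p of 0.117. It passed as lower when arrays were centred on their median over the tested probe sets (-0.14, adjusted p = 0.0113), with array weights (-0.11, adjusted p = 0.0212) and in the methods' t-test after adjustment (adjusted p = 0.0483). A second, dim Tmod1 probe set differed by -0.19 ± 0.08 (SE, adjusted p = 0.089). Red cell markers averaged 8.51 on the array labelled WT4 and lay between 5.94 and 6.29 on the rest of that group. Tmod1 stood at 12.08 on WT4, 12.09 on WT2 and WT3, 12.10 on WT6, 12.18 on WT1 and 12.20 on WT5. What part red cell RNA had in the Tmod1 level was not tested. Tmod2, the neuronal tropomodulin, was at 8.18, 8.22 and 8.35 on the arrays labelled KO, against 7.99, 8.17 and 8.39 on the arrays labelled WT (probe set 10595013). No array labelled KO fell outside the span of the arrays labelled WT. The 95% interval of the difference ran from -0.05 to 0.21 (adjusted p = 0.329), and its sign turned after quantile normalization. The array labelled KO2 was highest of its group for Tmod2 and for the mean of 8 neuron markers. That mean was 6.30 on KO2 and 5.82 to 5.90 on the others labelled KO. In the group labelled WT both were highest on WT2, but the neuron means there spanned 5.99 to 6.12. The lowest arrays of that group differed, WT4 for the neuron mean and WT1 for Tmod2. What part neuron RNA had in the Tmod2 level was not tested.

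The sarcomeric tropomyosins Tpm1 and Tpm2 were lower on the arrays labelled KO by small amounts. Tpm1, the alpha tropomyosin of fast fibres and heart, had levels of 13.01, 13.03 and 13.09 (minimum, median, maximum) on the arrays labelled KO, against 13.14, 13.19 and 13.23 on the arrays labelled WT (probe set 10594661). The groups did not overlap, and Tpm1 was 1.11-fold lower (-0.15 ± 0.03 SE, adjusted p = 0.00331). Tpm2, the beta chain, had levels of 12.87, 12.92 and 12.93 on the arrays labelled KO, against 12.98, 13.03 and 13.05 on the arrays labelled WT (probe set 10512499). It was 1.09-fold lower, again without overlap (-0.12 ± 0.03 SE, adjusted p = 0.0118). Both genes lay near the top of the scale, where the highest value of any tested probe set was 13.79, and saturation was not tested. Centring each array on its median over all rows ended both calls, with -0.10 (adjusted p = 0.0563) for Tpm1 and -0.07 (adjusted p = 0.17) for Tpm2. The Tpm2 call was also lost with the adipocyte marker level as a covariate (-0.09, adjusted p = 0.183). With the replicate number as a block it was lost as well (-0.12, adjusted p = 0.0621).

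Tpm4, which encodes tropomyosins of the cytoskeleton and of non-muscle cells, was the tropomyosin that differed most. Its levels (probe set 10572747) were 11.42, 11.52 and 11.65 on the arrays labelled KO (minimum, median, maximum), against 10.52, 10.90 and 11.33 on the arrays labelled WT. The groups did not overlap, although the array labelled WT3 (11.33) lay closest to the group labelled KO, and the group labelled WT spread over 0.81 units, against 0.23 units in the group labelled KO. Tpm4 was 1.55-fold higher (0.63 ± 0.10 SE, adjusted p = 0.000467).

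Tpm3 gave opposite answers by probe set. The gene encodes the tropomyosin of slow fibres and also cytoskeletal isoforms, and 4 probe sets carry its symbol alone. The probe set with the highest mean (10416940) had levels of 11.38, 11.49 and 11.64 on the arrays labelled KO (minimum, median, maximum), against 11.01, 11.10 and 11.38 on the arrays labelled WT, and was 1.28-fold higher (0.36 ± 0.07 SE, adjusted p = 0.00132). The probe set with the next highest mean (10493633) had levels of 10.64, 11.07 and 11.20 on the arrays labelled KO, against 11.07, 11.36 and 11.66 on the arrays labelled WT, and was 1.28-fold lower (-0.36 ± 0.11 SE, adjusted p = 0.0183). The ranges of the groups met or overlapped in both. The remaining probe sets differed by -0.02 each (adjusted p = 0.814 and 0.839), with 95% intervals from -0.17 to 0.12 and from -0.16 to 0.12. The platform table pairs the first probe set with 13 transcript records and the second with 3, all of which are among those 13, so that the records do not separate isoforms. Where in the genome each probe set lies, on Tpm3 itself or elsewhere, was not examined. Signal of slow and cytoskeletal forms, or of related copies, cannot be told apart here.

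**Figure D2:**
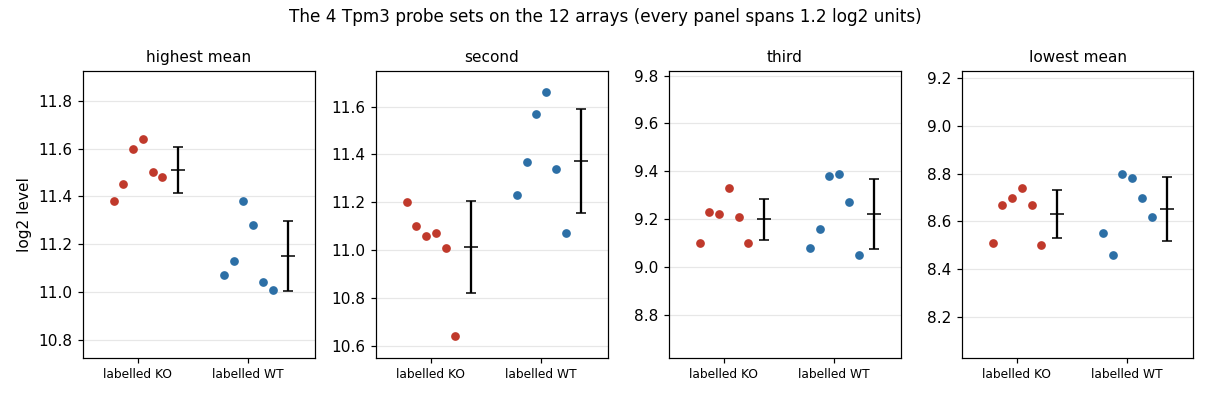
Log2 level (vertical axis, the same span in every panel) of the 4 probe sets that carry the Tpm3 symbol alone, in order of their mean level, with arrays labelled KO on the left in red and labelled WT on the right in blue. Bars give the mean and SD (n = 6). The first probe set was higher on the arrays labelled KO (11.38 to 11.64 against 11.01 to 11.38) and the second lower (10.64 to 11.20 against 11.07 to 11.66), while the last pair overlapped.

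Differences between members were also formed within each array, which asks whether 2 members changed unequally and does not rank their levels. Each pair was ordered so that its shift was positive. Of 12 pairs within the tropomyosins and within the tropomodulins, 7 had groups that did not overlap. Each of these 7 held a member whose own level already kept the groups apart. Tpm3 minus Tpm1 and Tpm3 minus Tpm2, among the 7, used the Tpm3 probe set with the highest mean. The share over pairs of other genes was not examined. The log2 level of Tpm4 minus that of Tpm1 ran from -1.62 to -1.36 on the arrays labelled KO and from -2.71 to -1.86 on the arrays labelled WT, a shift of 0.78. Tmod4 minus Tmod1 ran from 0.10 to 0.27 on the arrays labelled KO and from -0.51 to -0.25 on the arrays labelled WT, a shift of 0.57. Tmod3 minus Tmod2 was at least 0.84 on every array labelled KO and at most 0.78 on every array labelled WT. The groups overlapped for Tpm2 minus Tpm1 (-0.16 to -0.08 on the arrays labelled KO, -0.21 to -0.11 on the arrays labelled WT) and for Tmod4 minus Tmod3 (2.91 to 3.17 and 2.67 to 3.16).

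Markers of several other cell types moved with the group beside Tpm4, Tmod3 and the Tpm3 probe set with the highest mean. These genes are also expressed outside muscle fibres. Tmod4 and Lmod3 of skeletal muscle were higher too, by 0.49 and 0.31, while Tpm1, Tpm2 and Lmod2 were lower. Over all probe sets tested, 19.5% were higher and 12.4% lower. Of 6 endothelial markers 5 were higher and 0 lower, and their mean level was 10.29 to 10.39 on the arrays labelled KO and 9.69 to 10.15 on the arrays labelled WT. Of 7 fibroblast markers 6 were higher and 1 lower, with mean levels of 11.21 to 11.33 against 10.89 to 11.12. Of 6 macrophage markers 4 were higher and 0 lower. Smooth muscle markers, by contrast, had 1 higher and 1 lower of 7, and their mean level overlapped between the groups (8.59 to 8.81 and 8.68 to 8.91). Adipocyte markers had 5 higher and 1 lower of 9 and mean levels of 8.22 to 9.92 on the arrays labelled KO and 8.28 to 9.34 on the arrays labelled WT, where KO5 was the lowest and WT1 the highest of its group. Leaving out any array in turn kept 4 members higher and 3 lower. Within the group labelled WT, the array labelled WT3 was highest and WT6 lowest in both the endothelial mean and Tpm4. The arrays between them were ordered differently. WT1 stood at 9.98 in the endothelial mean, above WT6 alone, and at 10.99 in Tpm4, below WT3 alone. In the group labelled KO, KO3 was highest in both, while KO4 was lowest in the endothelial mean and KO6 in Tpm4. The part of these cells in the member differences was not tested, and in whole muscle more cells of a type and more RNA per cell cannot be told apart.

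**Figure D3:**
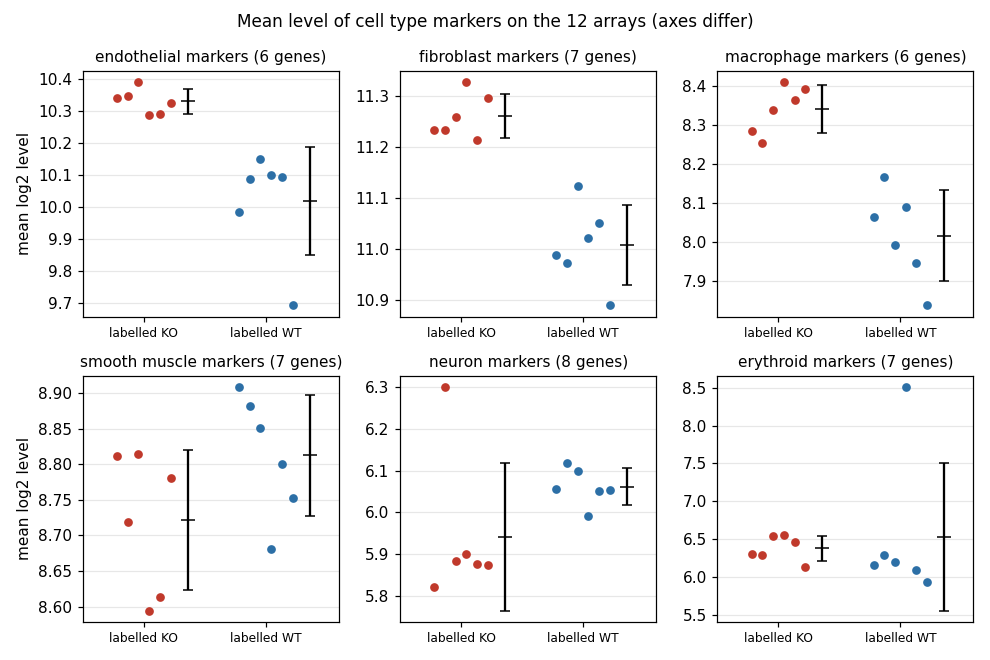
Mean log2 level of 6 lists of cell type markers on each array (vertical axes differ), with arrays labelled KO on the left in red and labelled WT on the right in blue; bars give the mean and SD (n = 6). Endothelial, fibroblast and macrophage markers did not overlap between the groups, 1 array labelled WT stood at 8.51 for erythroid markers and 1 labelled KO at 6.30 for neuron markers.

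Other genes of the thin filament gave a background for the members. Of 27 partners measured, 8 were higher, 10 lower and 9 did not pass. Thus 66.7% of the partners passed, against 77.8% of the members and 31.9% of all probe sets tested. The median absolute difference was 0.24 over the partners and 0.35 over the members. The counts depended on the setting, with 4 higher and 5 lower with the adipocyte covariate, 9 higher and 5 lower with centring over all rows, and 6 higher and 14 lower with centring over the tested probe sets. Kbtbd13, a kelch protein and nemaline myopathy gene, was 2.13-fold higher (1.09 ± 0.08 SE, adjusted p = 1.14e-06), with 7.50 to 7.74 on the arrays labelled KO and 6.27 to 6.68 on the arrays labelled WT. Klhl40, a kelch protein that stabilises thin filament proteins, was 1.19-fold higher (adjusted p = 0.00967), while Klhl41 did not pass (-0.11, adjusted p = 0.125). Nebulin (Neb), the ruler along the thin filament, and Nrap, which takes part in its assembly, were lower by 0.24 and 0.39 (adjusted p = 0.0229 and 0.000895). At the barbed end, the capping protein subunits Capza1 and Capza2 were 1.19-fold and 1.11-fold higher (adjusted p = 0.00422 and 0.0168), and Capzb did not pass (0.08, adjusted p = 0.118). The sarcomeric actins Acta1 and Actc1 did not pass, with differences of -0.08 and -0.16 (adjusted p = 0.0879 and 0.0518).

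Of 8 troponins, which sit on tropomyosin and move it with calcium, 6 were lower and 1 was higher (Tnni3). The slow inhibitory subunit Tnni1 was 1.58-fold lower (-0.66 ± 0.07 SE, adjusted p = 2.92e-05), and the cardiac and embryonic Tnnt2 was lower by 0.58 without overlap (adjusted p = 3.99e-06), with 10.75 to 10.88 on the arrays labelled KO and 11.21 to 11.49 on the arrays labelled WT. The slow and cardiac calcium sensor Tnnc1 was 1.51-fold lower. The fast forms Tnnt3 and Tnni2 were 1.09-fold and 1.10-fold lower, close in size to Tpm1 and Tpm2, while Tnnc2 did not pass (-0.05, adjusted p = 0.214). Of 7 contractile genes of slow fibres, which share a fibre type with the muscle form of Tpm3, 4 were lower (Tnnt1, Tnni1, Tnnc1 and Atp2a2), 1 was higher (Myl3, 0.60 ± 0.18 SE) and 2 did not pass (Myh7 and Myl2).

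Among 7 partners of tropomyosin outside the sarcomere, 2 were higher and 2 lower. Cnn2 and Cnn3, calponins of non-muscle cells, were 1.59-fold and 1.18-fold higher (adjusted p = 4.71e-05 and 0.00925). The smooth muscle calponin Cnn1 was 1.93-fold lower (-0.95 ± 0.20 SE, adjusted p = 0.0023), and the non-muscle myosin Myh10 was 1.19-fold lower. Caldesmon (Cald1), which binds tropomyosin and actin, differed by 0.06 ± 0.05 (SE, adjusted p = 0.379).

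**Figure D4:**
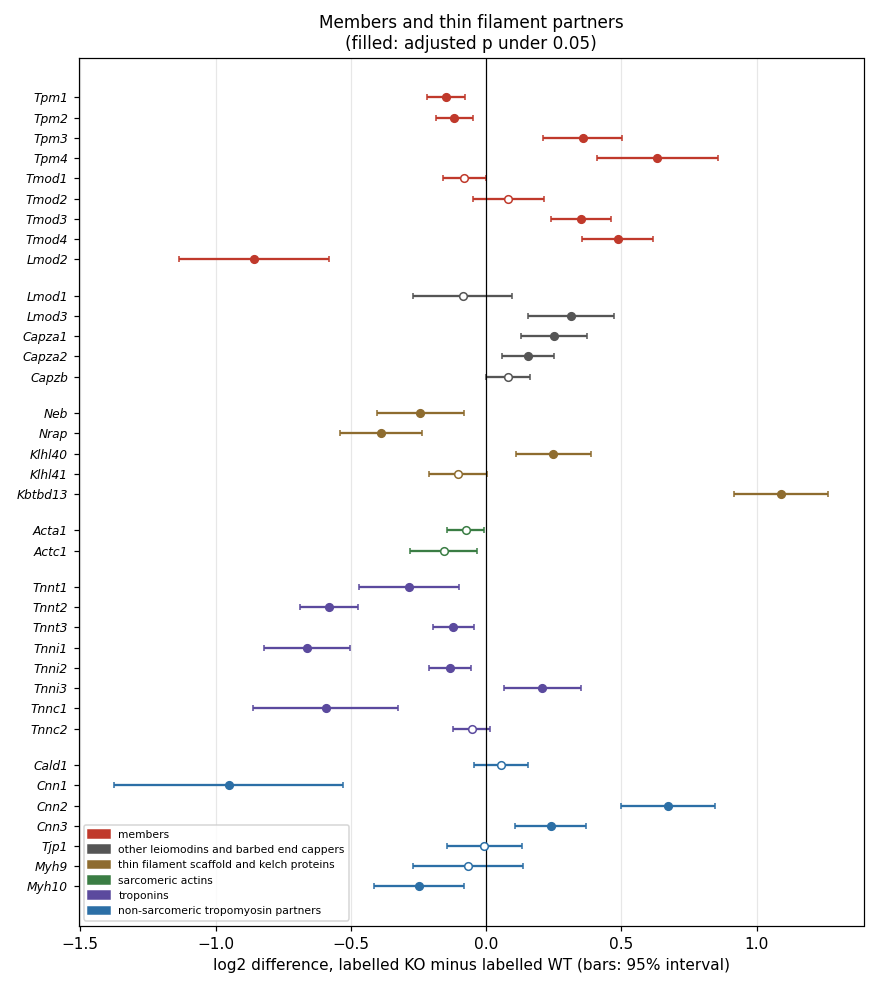
Log2 difference, labelled KO minus labelled WT (horizontal axis), with its 95% interval for the 9 members and 27 partners, coloured by list; filled points passed an adjusted p of 0.05. Lmod2 at -0.86 and Tpm4 at 0.63 lay at the ends of the members, and Kbtbd13 at 1.09 and Cnn1 at -0.95 at the ends of the partners.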

How the data were processed

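Total RNA of quadriceps muscle was hybridized to 12 Affymetrix Mouse Gene 1.0 ST arrays, 6 labelled KO and 6 labelled WT. The authors extracted features with the Affymetrix operating software and made normalized gene level values with Affymetrix Power Tools. The version, summary method and build were not given in the sources used here. Values deposited by the authors are log2 levels, judging by their range. Of 35556 rows, 21789 had 1 gene symbol in the platform annotation, 1621 had several and 12146 were unlisted. Symbols were updated by gene identifier from RefSeq (21698 matched).

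The model (lmFit, then eBayes, limma 3.58.1, R 4.3.3) held the labelled group alone, values were not normalized again, and p-values were adjusted by Benjamini-Hochberg at 0.05. The fit was tested on simulated data first. Named genes were the members, their partners, Cfl2 and, for each member that passed, the 2 genes with the highest correlation of deviations from the group means. Members and lists were chosen with earlier results of these data known. Alternatives were a replicate block, other scalings, filters, variance settings, covariates, probe set choices and each array left out. Centring on the median of all rows and the second Tpm3 probe set were added after seeing the data. The methods of the study describe 6 pairs of deficient and wild type littermates. Labels do not say which arrays form a pair or whether the pairs came from separate litters, so the main model left the pairing out.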

Additional observations from a re-analysis of the deposited data

Results flagged for a closer look

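A probe set that the platform table pairs with both Gm7809 and Tpm4 stood outside the comparisons above, because it names more than 1 gene. In a fit over all rows it was higher on the arrays labelled KO by 0.42 ± 0.06 (SE, limma adjusted p = 0.000556), with 12.44 to 12.55 on the arrays labelled KO and 11.90 to 12.35 on the arrays labelled WT. Its signal cannot be given to either gene. In the 18 groups of 6 arrays examined for the 9 members, 0 arrays stood apart from the rest of their group by Dixon's gap at the 95% level.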

How the results depend on the processing

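Lmod2, Tpm4, Tmod3 and Tmod4 kept their direction and their call under every alternative run for them, with differences of -0.95 to -0.77, 0.56 to 0.72, 0.28 to 0.40 and 0.43 to 0.54. Tpm3 turned to -0.012 with the mean of its probe sets (adjusted p = 0.91) and to -0.36 with the probe set of the next highest mean, a choice made after seeing the data, since its probe sets disagreed. Tmod2 turned to -0.02 after quantile normalization; the cause was not tested. Centring on the median over all rows, also chosen after seeing the data, left 1 member lower and 5 partners lower. The adipocyte level as a covariate left 4 partners higher and 5 lower and ended the Tpm2 call (-0.09, adjusted p = 0.183). The cause was not tested. Leaving out each array in turn kept 4 members higher and 3 lower, and 7 to 8 partners higher and 8 to 11 lower.

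The labels number the arrays 1 to 6 in both groups and the study used littermates, but nothing says that a number marks a litter. Deviations of same-numbered arrays correlated at -0.22 to 0.17, and 2 of 6 arrays labelled KO correlated best with their own number. With the replicate number as a block, 4 members were higher and 2 lower, and Tpm2 lost its call (-0.12, adjusted p = 0.0621). Dim probe sets have no known floor.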

Other observations

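Within the groups, some members varied together from array to array. After each labelled group's mean was subtracted, the levels of Tpm3 and Tpm4 correlated at a Pearson r of 0.78 over the 12 arrays, Tmod2 and Tmod3 at 0.74, and Tmod1 and Tmod3 at -0.76. These pairs had the largest absolute correlations among all pairs of members, and others were weak, such as Tpm2 and Tpm4 at 0.003. Tpm3 was read from its probe set with the highest mean, here and below. These are descriptions over 12 arrays that share one normalization, and no p is given.

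For each member that passed, the genes with the most similar deviations among 18553 others are named, so that their correlations are high by selection. Tpm4 was most like Cald1, the actin and tropomyosin binding caldesmon (r = 0.96, Spearman's rho = 0.85), and Cavin2 of the caveolae (r = 0.94, rho = 0.81). Leaving out the 2 arrays farthest from the median of Tpm4 gave r = 0.80 for Cald1 and 0.66 for Cavin2, and the relation with Cald1 was 0.59 within the arrays labelled KO and 0.99 within those labelled WT. Tpm3 was most like Tra2b, a splicing factor (r = 0.94, rho = 0.96), and Arpc2, a subunit of the actin-branching Arp2/3 complex (r = 0.94, rho = 0.94), with 0.91 and 0.90 without the 2 farthest arrays. Lmod2 was most like Dnajb5, a co-chaperone (r = 0.91, rho = 0.85, and 0.84 without the 2 farthest arrays), and Prss55 (r = 0.88, rho = 0.87, and 0.75). Tmod3 was most like Ugdh (r = 0.94, rho = 0.91) and Stk19 (r = 0.89, rho = 0.83), and Tmod4 most like Mitf (r = 0.92, rho = 0.86) and Tfcp2 (r = 0.90, rho = 0.82). Tpm1 was most like Rab5if (r = 0.92, rho = 0.82) and Ythdf1 (r = 0.90, rho = 0.90), and Tpm2 most like P2rx5 (r = 0.88, rho = 0.78) and Cavin4, a protein of muscle caveolae (r = 0.85, rho = 0.81). Of these 14 genes Tra2b, Cavin2, Ugdh and Tfcp2 were higher on the arrays labelled KO, by 0.32, 0.49, 0.34 and 0.20, and P2rx5 and Dnajb5 lower, by 0.29 and 0.47.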
